A study of Mus musculus with 8 samples.

Results

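Slit-Robo genes were examined in the livers of mice that lacked NgBR in hepatocytes (N-LKO) and of WT mice. The family was fixed as 8 symbols, namely the receptors Robo1, Robo2 and Robo4, the ligands Slit2 and Slit3, and the intracellular effectors Srgap1, Srgap2 and Srgap3, and Robo1 was chosen because it was higher in N-LKO livers in these same data. Of the 8, 7 were among the 19642 genes measured, and 6 of those 7 passed the filter on low counts. Slit2 did not pass, and Slit3 was not analysed here. Robo3 and the family relative Arhgap4, which are not members, are given beside them.

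Liver RNA was sequenced from 4 WT and 4 N-LKO male C57BL6 mice on a chow diet (CD), with 1 library per mouse. N-LKO mice carried loxP-flanked NgBR (Nus1) alleles with an albumin-Cre transgene, and were bred from albumin-Cre NgBR loxP/+ and NgBR loxP/+ parents. Albumin is made by hepatocytes, and the state of the Nus1 gene in other liver cells was not measured here. Whether the WT mice carried Cre or loxP alleles is not given in the sample labels. The titles give 8 weeks of CD, as do the paper's legends for liver mRNA of chow-fed mice, and the treatment entries give 16 weeks. The sources thus differ on the duration, and the age of the mice is uncertain. The libraries held between 14688404 and 18585412 counts.

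Slit proteins are secreted ligands that bind Robo receptors, single-pass transmembrane proteins of the immunoglobulin superfamily, and turn migrating cells and growing axons away from the source of ligand. Srgap proteins bind the cytoplasmic tail of Robo through an SH3 domain, switch off small GTPases through a GTPase-activating domain, and bend membranes through an F-BAR domain. Outside the nervous system, Robo4 is known mainly from endothelium, and Robo1 and Slit2 are known from mesenchymal, endothelial and epithelial cells.

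Nus1, the targeted gene, was measured first. It was at 82.0, 90.4, 90.5 and 89.7 TMM-scaled counts scaled to a common depth (CPM) in WT replicates 1 to 4 and at 33.3, 36.2, 38.7 and 38.7 CPM in N-LKO replicates 1 to 4. All N-LKO values lay below all WT values, and on average N-LKO livers kept 41.7% of the WT level (log2 fold change -1.26, SE 0.075, adjusted p = 3.06e-05, edgeR). The summed CPM of 8 hepatocyte markers, which include Alb and Hnf4a, was 68108 to 97070 in WT and 72043 to 87129 in N-LKO livers, and none of the 8 was called by edgeR, DESeq2 or limma-voom or had an unadjusted p under 0.05. Across all 14214 genes tested, 148 (1.04%) had an adjusted p under 0.05, of which 117 were higher in N-LKO livers (0.823% of genes tested). The median log2 fold change of all genes was -0.0033.

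The sequences just before the start sites of Robo1, Robo2 and Srgap3 are printed. Among the members that passed the filter, these receptors and this effector had the largest log2 fold changes in either direction. Each run is the 250 bases before a RefSeq start (build GRCm38.p6), written 5′ to 3′ on the strand of the gene, with capitals marking a match to a searched motif. Robo1 is at chr16:72662899-72663148, plus strand, Robo2 at chr16:74411826-74412075, minus strand, and Srgap3 at chr6:112947267-112947516, minus strand.
Robo1: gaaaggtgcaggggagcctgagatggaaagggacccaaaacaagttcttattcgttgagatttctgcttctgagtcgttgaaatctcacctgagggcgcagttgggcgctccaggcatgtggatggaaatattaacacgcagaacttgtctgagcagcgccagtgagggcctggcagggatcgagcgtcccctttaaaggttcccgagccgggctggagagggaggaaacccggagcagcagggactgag
Robo2: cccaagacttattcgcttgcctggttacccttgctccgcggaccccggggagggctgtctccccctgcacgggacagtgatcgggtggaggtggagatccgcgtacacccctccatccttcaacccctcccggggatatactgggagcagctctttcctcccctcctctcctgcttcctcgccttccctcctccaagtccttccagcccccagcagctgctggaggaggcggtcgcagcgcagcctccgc
Srgap3: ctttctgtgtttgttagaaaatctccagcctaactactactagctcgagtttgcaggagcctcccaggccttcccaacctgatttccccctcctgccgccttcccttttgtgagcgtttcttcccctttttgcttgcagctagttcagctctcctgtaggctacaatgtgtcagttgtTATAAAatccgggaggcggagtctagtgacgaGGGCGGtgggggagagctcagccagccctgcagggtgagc

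The motifs were the TATA box TATAAA, the CCAAT box CCAAT, the GC box GGGCGG, the E-box CACGTG, the CRE TGACGTCA, the AP-1 site TGANTCA and the TEAD site CATTCC, each on both strands. Neither the Robo1 nor the printed Robo2 run held any of these letters, while 1 of the other Robo2 windows, at chr16:75447294-75447543, held 1 E-box, found in 6.02% of promoters. The Srgap3 run held 1 TATA box, a motif found in 12.4% of 32851 promoters of the same length, and 1 GC box, found in 32.7%. The Slit2 window, not printed, held 1 TATA box and 3 GC boxes. The Robo1 run had a GC content of 56.0%, the Robo2 run 65.6% and the Srgap3 run 54.0%, beside a median of 52.4% over all promoters. Both Robo genes have more than 1 annotated start. The Robo1 window lies inside the span that the deposited table gives to the gene, and RefSeq gives 3 starts for Robo2, of which the printed one is at the start of the deposited span. A match describes letters only, and which start was used in these livers was not measured.

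Robo1, a receptor for Slit ligands (ENSMUSG00000022883.11, GRCm38 chr16:72308306-73046095, plus strand), was at 7.91, 8.19, 8.37 and 7.84 CPM in the WT livers. It was at 21.8, 32.1, 20.4 and 25 CPM in the N-LKO livers. The lowest N-LKO liver lay well above the highest WT liver, and the N-LKO livers also differed more among themselves. The WT mean was 8.08 ± 0.248 CPM and the N-LKO mean 24.8 ± 5.20 CPM (SD, n = 4 each), a ratio of 3.07, and the log2 fold change was 1.62 with an SE of 0.14. These values are a description with no test, because the family was selected on Robo1 in this contrast. The values rested on 131 to 148 reads in each WT and 308 to 486 reads in each N-LKO library, and the log2 fold change was between 1.47 and 1.70 over the 8 fits that each left out 1 mouse, the lowest without N-LKO replicate 2. In whole liver, fewer cells of a type and less RNA per cell cannot be told apart, nor can more cells and more RNA per cell.

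Robo2, a second axon guidance receptor of the family (ENSMUSG00000052516.19, chr16:73891839-74411825, minus strand), was at 1.28, 1.31, 2.66 and 1.77 CPM in WT livers and at 3.29, 4.42, 4.31 and 3.67 CPM in N-LKO livers. The groups did not overlap, as was the case for 7.52% of all genes tested. The means were 1.76 ± 0.644 and 3.92 ± 0.538 CPM (SD, n = 4 each), a ratio of 2.23. The log2 fold change was 1.16 (SE 0.24, 95% interval 0.63 to 1.70), and the exact two-sided permutation test over mice gave p = 0.0286, the smallest that 4 against 4 mice allow. In edgeR's quasi-likelihood test the adjusted p was 0.0535, so that Robo2 was not called. It lay under 0.05 in DESeq2 (adjusted p = 0.0015), in limma-voom (0.0439), with no filter on low counts (0.0444), and without WT replicate 3, the highest WT liver (0.0217), and it ranged up to 0.154 when another mouse was left out.

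Robo4, the endothelial receptor (ENSMUSG00000032125.20, chr9:37401897-37415115, plus strand), was at 5.56, 7.38, 5.90 and 6.51 CPM in WT livers and at 6.12, 7.06, 5.77 and 6.86 CPM in N-LKO livers. The groups overlapped almost entirely, with means of 6.34 ± 0.800 and 6.45 ± 0.607 CPM (SD, n = 4 each). The log2 fold change was 0.027 (SE 0.13, 95% interval -0.26 to 0.32), with an adjusted p of 0.960 (edgeR) and p = 0.8 in the exact permutation test, and its sign turned with library totals alone as the scaling (-0.0055). Robo3, which lies next to Robo4 on chromosome 9, did not pass the filter, with 18 reads over the WT and 22 over the N-LKO livers. Their ratio after scaling to depth was 1.34 (95% exact interval 0.686 to 2.65, which covers counting error only).

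**Figure D1:**
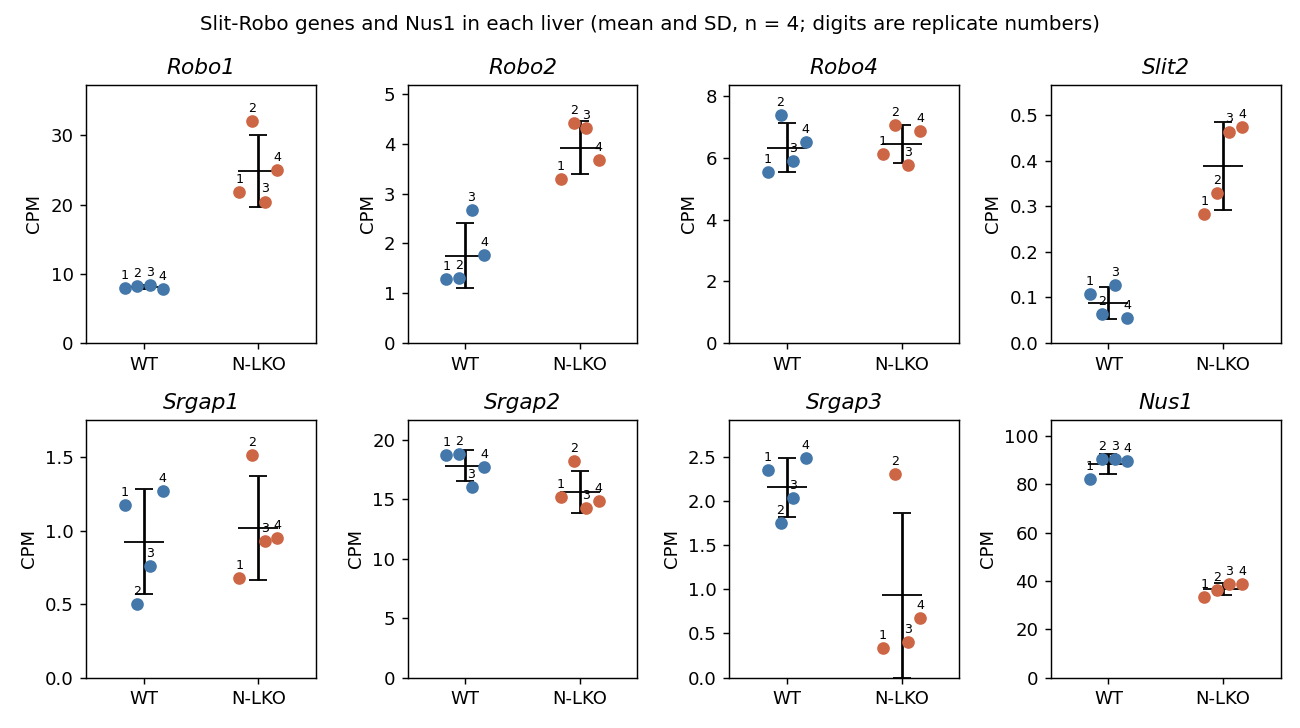
CPM of the 7 measured members and of Nus1 in each liver, WT in blue and N-LKO in orange, with the mean and SD of 4 mice and the replicate number at each point, each panel on its own linear axis from 0. Robo1, Robo2 and Slit2 were above every WT liver in all 4 N-LKO livers, Robo4 overlapped, and in Srgap3 N-LKO replicate 2, at 2.31 CPM, stood with the WT livers. Of all genes tested, 7.52% had groups without overlap in either direction.

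Summed over the 4 Robo receptors, the level was 15.2 to 17.2 CPM in WT and 30.8 to 44.1 CPM in N-LKO livers. Robo1 supplied 48.0% to 52.1% of that sum in WT livers and 66.4% to 72.8% in N-LKO livers. Robo4 supplied 34.2% to 43.2% in WT livers and 16.0% to 19.5% in N-LKO livers. These are shares of CPM, which are not corrected for gene length, and they describe a sum that includes the gene the family was selected on. In CPM per kilobase of merged exons, Robo4 (1.20) lay above Robo1 (0.489) in WT livers. On that scale Robo1 was at 1.5 and Robo4 at 1.22 in N-LKO livers.

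Slit2, the measured ligand (ENSMUSG00000031558.15, chr5:47983138-48307733, plus strand), was close to the limit of detection. It had 2, 1, 2 and 1 reads in the WT libraries and 5, 5, 7 and 7 reads in the N-LKO libraries, or 0.0878 ± 0.0346 and 0.388 ± 0.0962 CPM (SD, n = 4 each). Every N-LKO liver had more Slit2 reads than every WT liver, and 7.52% of all genes tested had groups without overlap in either direction. The 24 reads against 6 gave a ratio after scaling to depth of 4.38, with a 95% exact interval of 1.75 to 13.1 for counting error alone, and p = 0.0286 in the exact two-sided permutation test over mice. With no filter on low counts, the adjusted p over all genes was 0.134 (edgeR), so that Slit2 was not called. Mir218-1, a microRNA gene, lies in an intron of Slit2 and has no value here.

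Srgap1, Srgap2 and Srgap3 are the effectors that carry the F-BAR, GTPase-activating and SH3 domains. Srgap3 (ENSMUSG00000030257.16, chr6:112717971-112947266, minus strand) was at 2.35, 1.75, 2.03 and 2.48 CPM in WT livers and at 0.340, 2.31, 0.398 and 0.679 CPM in N-LKO livers. Of the N-LKO livers 3 lay below every WT liver, with 6 to 10 reads each, while N-LKO replicate 2, with 35 reads, lay inside the WT range. The means were 2.15 ± 0.329 and 0.932 ± 0.931 CPM (SD, n = 4 each), so that the N-LKO livers held on average 43.3% of the WT level. On the log2 scale the change was -1.22 (SE 0.49, 95% interval -2.31 to -0.14), with an adjusted p of 0.327 (edgeR) and p = 0.0857 in the exact permutation test. With N-LKO replicate 2 left out it was -2.19 with an adjusted p of 0.0116 (edgeR), so that this 1 library decided the call. Exons of Srgap3 share 150 bases with Gm44081, annotated on the other strand, and the strand used in counting is not given in the sources used here.

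Srgap2 (ENSMUSG00000026425.15, chr1:131285251-131527352, minus strand) was at 18.7, 18.8, 16.0 and 17.7 CPM in WT livers and at 15.1, 18.2, 14.3 and 14.9 CPM in N-LKO livers. N-LKO replicate 2 was again the N-LKO liver within the WT range, and the other 3 lay below it. The means were 17.8 ± 1.30 and 15.6 ± 1.77 CPM (SD, n = 4 each), and the log2 fold change of -0.19 (SE 0.10, 95% interval -0.41 to 0.033) did not pass the test (adjusted p = 0.480, edgeR, and exact permutation p = 0.0857). Srgap1 (ENSMUSG00000020121.15, chr10:121780991-122047315, minus strand) was at 1.18, 0.50, 0.761 and 1.27 CPM in WT livers and at 0.680, 1.52, 0.929 and 0.951 CPM in N-LKO livers. Its groups overlapped, with means of 0.926 ± 0.360 and 1.02 ± 0.354 CPM, a log2 fold change of 0.11 (SE 0.36, 95% interval -0.67 to 0.90), an adjusted p of 0.934 (edgeR) and an exact permutation p of 0.743. The interval is wide, and changes of Srgap1 within it were not resolved by these 8 mice. Exons of Srgap1 share 131 bases with Gm48804, annotated on the same strand. Arhgap4, a further member of the srGAP family, was at 1.94 ± 0.318 CPM in WT and 1.4 ± 0.121 CPM in N-LKO livers. Its groups did not overlap, as for 7.52% of all genes tested, and the adjusted p was 0.381 (edgeR). Of the 5 members tested other than Robo1, none was called by edgeR, against 1.04% of all genes, while 2 (Robo2 and Srgap3) had an unadjusted p under 0.05, against 12.8% of all genes. DESeq2 and limma-voom each called 1 of the 5, Robo2.

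**Figure D2:**
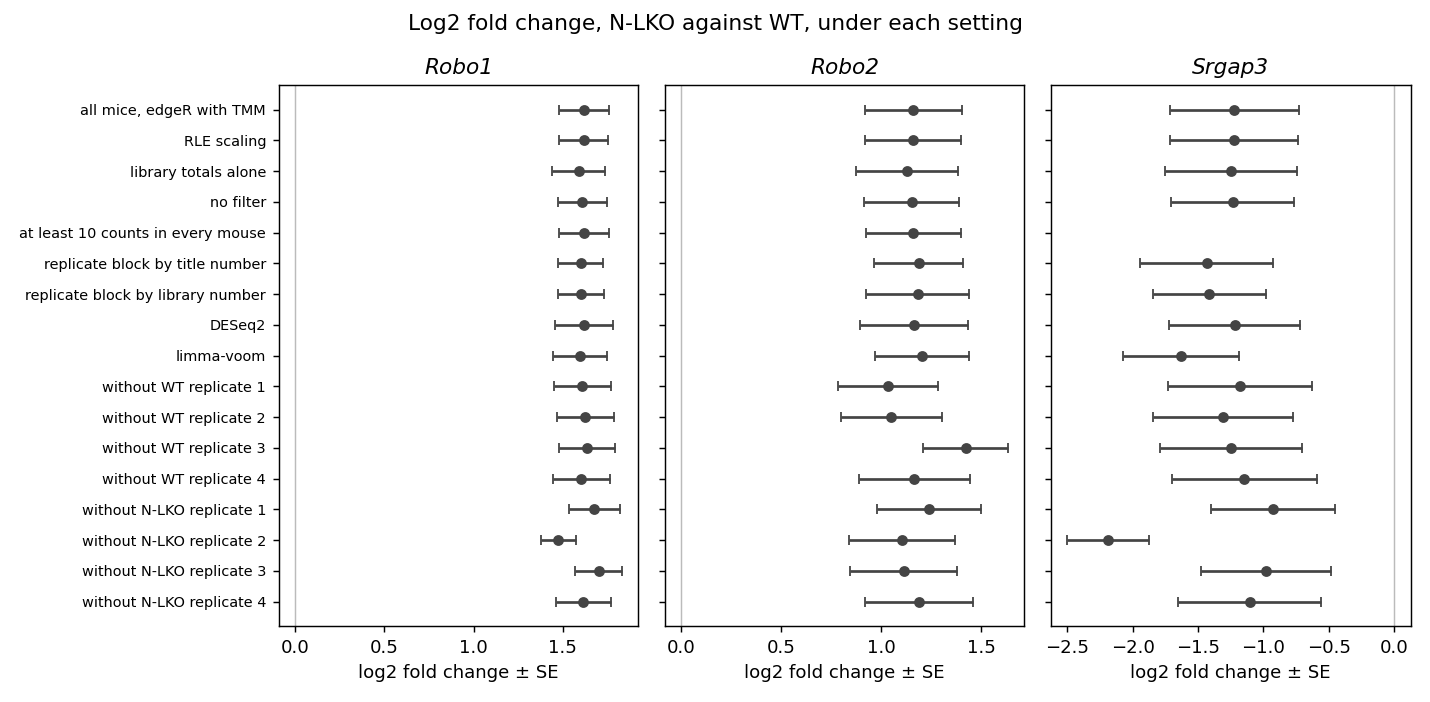
Log2 fold change (N-LKO against WT, with SE) of Robo1, Robo2 and Srgap3 with all mice, under each other scaling, filter, block or tool, and without each mouse. Robo1 lay between 1.47 and 1.70 and Robo2 between 1.03 and 1.42, while Srgap3 went from -1.22 to -2.19 without N-LKO replicate 2 (Srgap3 has no value under the filter of 10 counts in every mouse).

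Levels of different genes were compared as CPM per kilobase of merged exons. In WT livers Srgap2 was highest, at 1.42 ± 0.103, followed by Robo4, at 1.20 ± 0.151, and the livers of these neighbours overlapped. Robo1 was at 0.489 ± 0.015 and Srgap3 at 0.219 ± 0.0334, each clear of its neighbours. Robo2, at 0.103 ± 0.0379, and Srgap1, at 0.101 ± 0.0394, could not be separated, and Robo3, at 0.0381 ± 0.0205, and Slit2, at 0.00345 ± 0.00136, were lowest (SD, n = 4 throughout). In N-LKO livers Robo1, at 1.5 ± 0.315, was close to Srgap2 (1.24 ± 0.141) and Robo4 (1.22 ± 0.115), whose livers overlapped with its own. Robo2, at 0.231 ± 0.0317, then lay above Srgap1 (0.112 ± 0.0388). The order depends on the length used. With the longest transcript as the length, Robo1 was at 1.07 ± 0.0328 in WT livers and 3.28 ± 0.688 in N-LKO livers, and in N-LKO livers it lay above Srgap2 (1.95 ± 0.22) and Robo4 (1.30 ± 0.123) with no overlap.

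**Figure D3:**
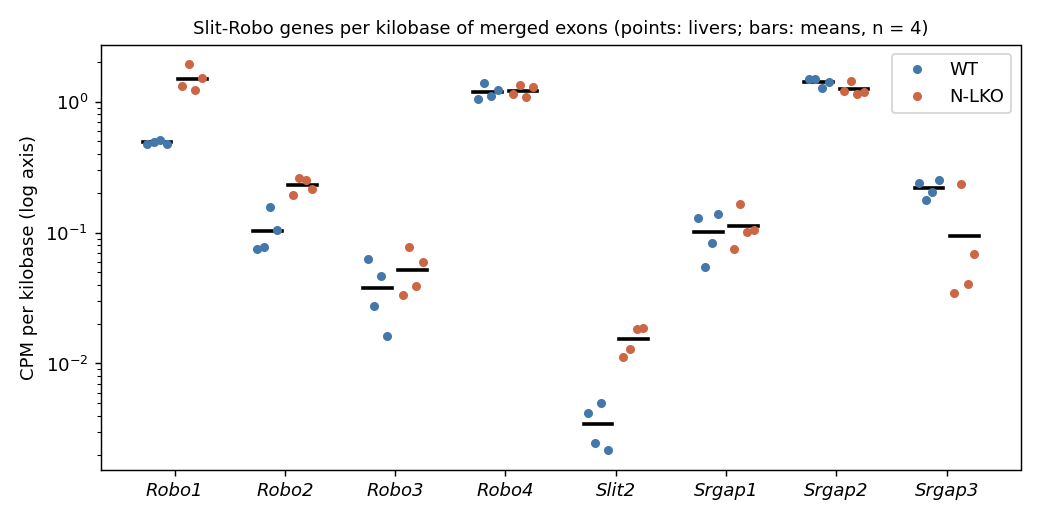
CPM per kilobase of merged exons (log axis) of the 7 measured members and Robo3 in each of 4 WT (blue) and 4 N-LKO (orange) livers, with bars at the group means. On this length Robo1 went from a mean of 0.489 to 1.5 and overlapped with Robo4 and Srgap2 in N-LKO livers, which it did not with the longest transcript as the length, and Slit2 was the lowest gene in both groups.

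Genes that act with Slit and Robo were taken from lists. Of 17 tested surface partners, which include heparan sulfate proteoglycans and other co-receptors, none was called by edgeR, against 1.04% of all genes tested. The partners had a median log2 fold change of 0.12, and 5 had an unadjusted p under 0.05, against 12.8% of all genes tested. DESeq2 called 1 of the partners and limma-voom none. The 5, chosen after their values were seen, were Prrg4 (1.2 ± 0.422 to 3.11 ± 1.06 CPM, log2 fold change 1.41, adjusted p = 0.0688), Cxcr4 (log2 fold change 0.82), Unc5b (0.76), Gpc1 (0.60) and Ndfip2 (0.27). Prrg4 and Ndfip2 are adaptors that recruit or bind ubiquitin ligases, Cxcr4 is a chemokine receptor, Unc5b a netrin receptor and Gpc1 the proteoglycan glypican-1. Of 20 tested cytoplasmic effectors, which include kinases, small GTPases and their regulators, none was called by edgeR, DESeq2 or limma-voom, none had an unadjusted p under 0.05, and the median was 0.039.

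Other guidance families had 36 genes tested, with a median log2 fold change of -0.023. Of the 36, 1 was called (2.78%, against 1.04% of all genes tested) and 8 had an unadjusted p under 0.05 (against 12.8%). The called gene was Plxna4, a semaphorin receptor (log2 fold change 1.08, SE 0.14, adjusted p = 0.0053, edgeR). It rose from 4.01 ± 0.50 to 8.52 ± 1.00 CPM (SD, n = 4 each) with no overlap, as for 7.52% of all genes tested. Netrins and their receptors (5 tested, median 0.13), semaphorins (13 tested, median -0.033), ephrins (4 tested, median -0.18) and Eph receptors (5 tested, median -0.066) held no called gene in edgeR, with 1, 2, 0 and 2 genes in that order at an unadjusted p under 0.05. DESeq2 called 1 Eph receptor (Epha2) and none in the other 3 lists, and limma-voom none in the 4. The 9 tested plexins and neuropilins had a median of -0.014. Of genes chosen after their values were seen, the plexin Plxnd1 (log2 fold change -0.43, adjusted p = 0.122) and the neuropilin Nrp2 (-0.42, adjusted p = 0.112), receptors of the same list as Plxna4, did not pass in edgeR, while DESeq2 also called Nrp2. Together, these partner, effector and guidance lists, which leave out the Robo, Slit and Srgap genes themselves, held 70 tested genes, with a median of 0.037. Of the 70, 1 was called (1.43%, against 1.04% of all genes tested) and 12 had an unadjusted p under 0.05 (against 12.8%).

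**Figure D4:**
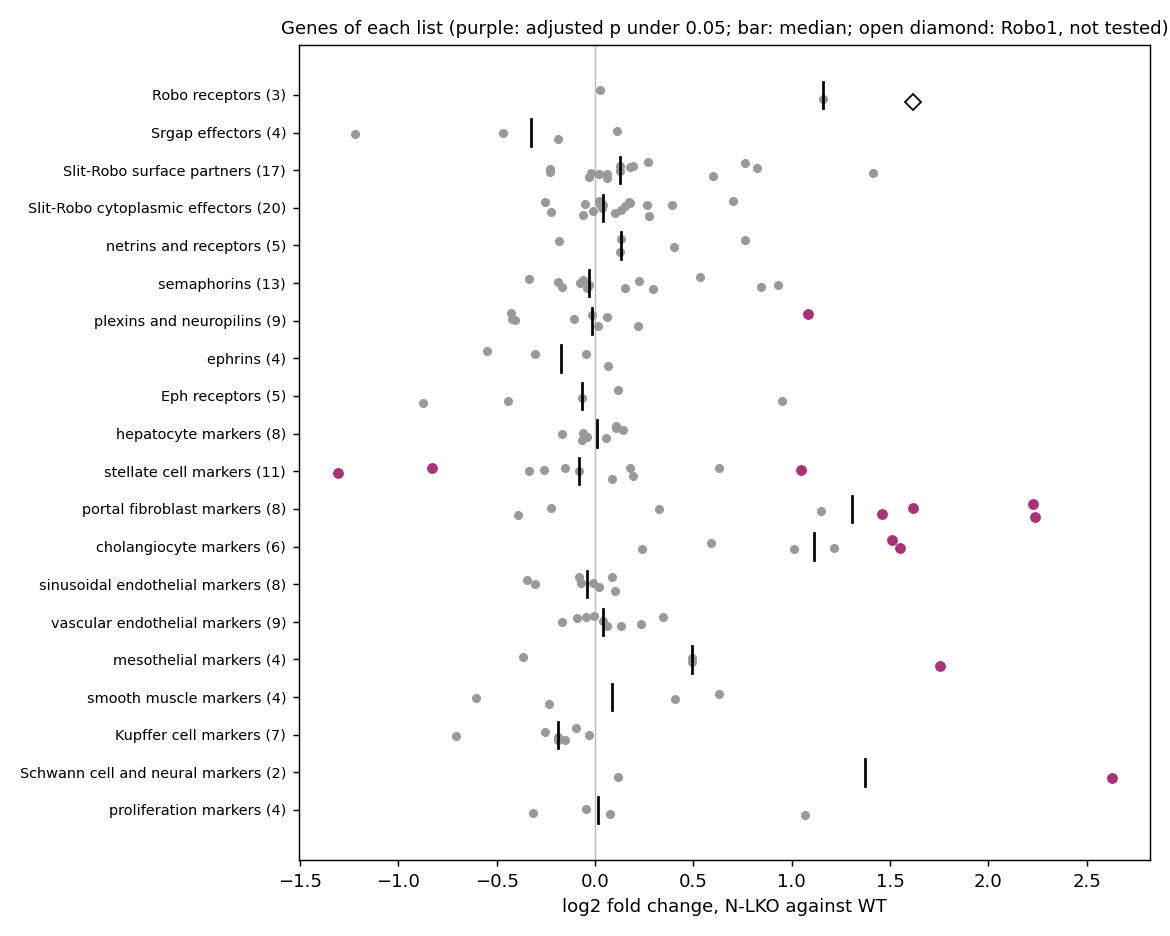
Log2 fold change (N-LKO against WT) of each tested gene by list, with the number tested in parentheses, genes called by edgeR in purple, the median as a bar, and Robo1 as an open diamond because the family was selected on it. Among the guidance lists Plxna4 was the called gene, at 1.08, while 4 of 8 portal fibroblast markers and 2 of 6 cholangiocyte markers were called higher. Of all genes tested, 0.823% were called higher.

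Some markers of several cell types were, like Robo1, higher in N-LKO livers. Portal fibroblast markers had 8 genes tested, of which 4 were called higher. These were the matrix genes Dpt (log2 fold change 2.23, SE 0.19), Eln (1.62, SE 0.27) and Lum (1.46, SE 0.17) and the surface sialomucin Cd34 (2.24, SE 0.30). Mfap4 and Thy1 (0.32) were higher but not called, and Col15a1 (-0.39) and Entpd2 (-0.22) were lower and not called. The list thus did not move as a whole, and its median was 1.30. The summed level of the list was 18.8 to 24.4 CPM in WT and 41.4 to 63.9 CPM in N-LKO livers. Cholangiocyte markers had 6 tested, of which the adhesion molecule Epcam (1.55, SE 0.29) and the matrix protein Spp1 (1.51, SE 0.29) rose, with a median of 1.11 and sums of 36.5 to 64.0 CPM in WT and 74.2 to 160.0 CPM in N-LKO livers. Spp1 alone made up 16.1 to 32.5 CPM of the WT sums and 37.4 to 105 CPM of the N-LKO sums. Among mesothelial markers, 4 of which were tested, the transcription factor Wt1 was called higher (1.75, SE 0.27), and the median was 0.49. Msln (0.49) and Gpm6a (0.49) were higher but not called, and Upk3b was lower (-0.37). The mesothelial sums were 6.09 to 8.55 and 9.02 to 11.5 CPM. Among Schwann cell and neural markers, 2 of which were tested, the adhesion molecule Ncam1 rose (2.63, SE 0.39), and the sums overlapped (1.71 to 2.24 and 1.65 to 3.65 CPM). Ncam1 rested on few reads, 1 to 3 in each WT and 11 to 16 in each N-LKO library. Epcam and Spp1 were each called in only 2 of the 8 fits that left out 1 mouse, and neither was called by limma-voom. Eln was called in 5 of those 8 fits, losing its call without WT replicates 2 and 4 and N-LKO replicate 3, and Wt1 in 7, losing it without WT replicate 4. With the library number as a block, Epcam, Spp1 and Eln were not called (adjusted p = 0.0661, 0.0901 and 0.0535, edgeR), and with the title number as a block Wt1 was not (0.0569).

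Within the N-LKO group the order of the mice differed between Robo1 and these lists. N-LKO replicate 3 had the highest portal fibroblast sum (63.9 CPM) and the highest cholangiocyte sum (160.0 CPM), and the lowest Robo1 (20.4 CPM). N-LKO replicate 2, with the highest Robo1 (32.1 CPM), had sums of 51.0 and 101.6 CPM. Much of the cholangiocyte sum was Spp1, at 105 CPM in N-LKO replicate 3 and 68.0 CPM in N-LKO replicate 2. The part of these cell types in the level of Robo1 was not tested.

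Among 11 tested stellate cell markers, Colec10, a collectin (log2 fold change -1.31, SE 0.13), and Ecm1, a matrix protein (-0.83, SE 0.13), fell. Ecm1 was not called without WT replicate 4 or without N-LKO replicate 3. The median of the list was -0.082, and its summed level overlapped (185 to 272 CPM in WT and 170 to 228 CPM in N-LKO livers). Sinusoidal endothelial markers (8 tested, median -0.041, sums of 175 to 209 and 166 to 192.5 CPM) and vascular endothelial markers (9 tested, median 0.038, sums of 259 to 276 and 253 to 285 CPM) held no called gene, with 1 gene each at an unadjusted p under 0.05. The same was true of Kupffer cell markers (7 tested, median -0.19, 1 at an unadjusted p under 0.05), smooth muscle markers (4 tested, median 0.086, 2) and proliferation markers (4 tested, median 0.013, 1). DESeq2 and limma-voom called none in these 5 lists either. Of 91 listed markers, 84 had a value, and the others were not analysed here. The marker calls given are edgeR's, at an adjusted p under 0.05. Over all genes tested, 1.04% were called, and 12.8% had an unadjusted p under 0.05.

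**Figure D5:**
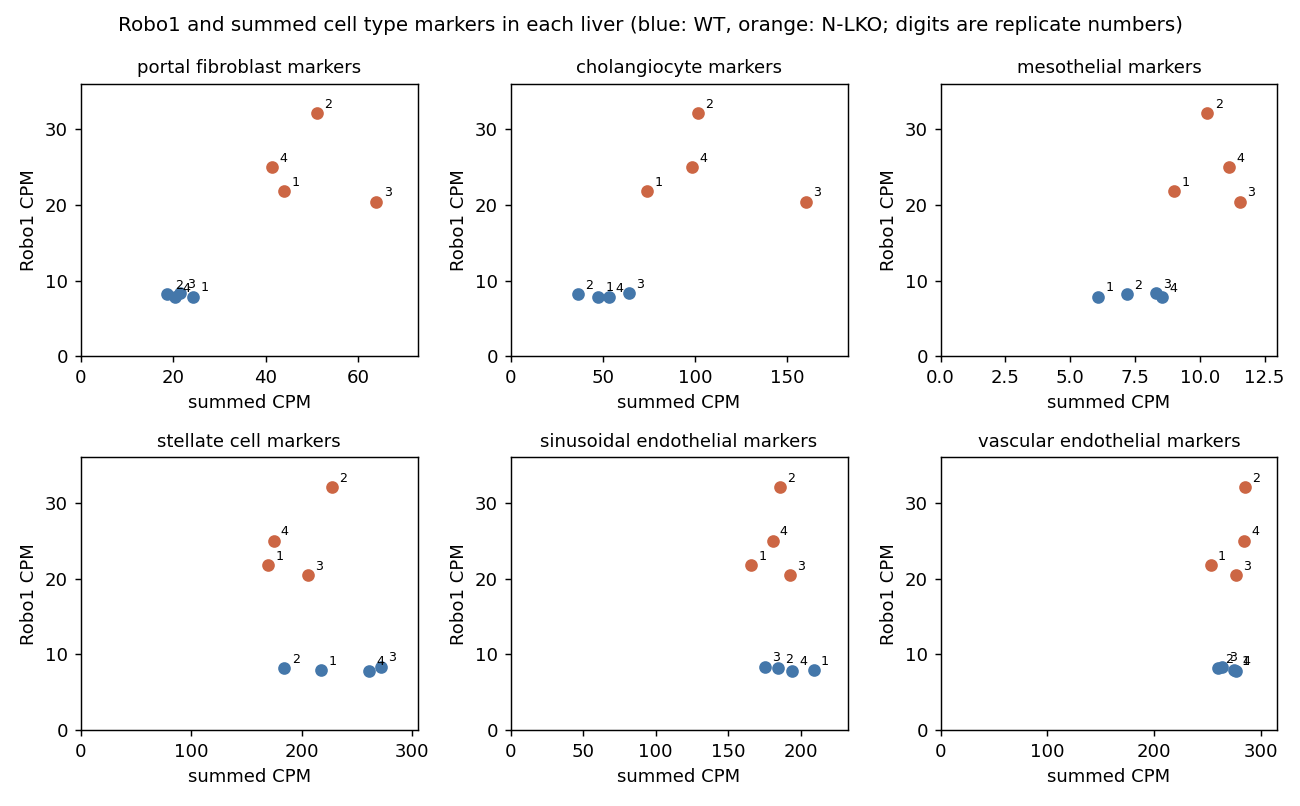
Robo1 (CPM, vertical) against the summed CPM (horizontal) of 6 marker lists in each liver, WT in blue and N-LKO in orange, with replicate numbers. Portal fibroblast, cholangiocyte and mesothelial sums separated the genotypes, as did Robo1, on which the family was selected, while stellate and endothelial sums overlapped. Of all single genes tested, 7.52% had groups without overlap in either direction. N-LKO replicate 3 had the lowest Robo1 of its group beside the highest portal fibroblast and cholangiocyte sums.

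The genes whose log2 CPM over the 8 mice was most like that of Robo1, among 13166 with a mean of at least 1 CPM, were Spon1 (Pearson r = 0.979), Fgfr1 (0.975), Gpx3 (0.968), Akr1b3 (0.966), Itga3 (0.966), Wt1 (0.965), Fmn1 (0.962), Emp1 (0.959), Meg3 (0.958) and Ccbe1 (0.955). All 10 were above every WT liver in each N-LKO liver, and 8 of the 10 were called higher. Of all genes tested, 7.52% did not overlap in either direction and 0.823% were called higher. Likeness to Robo1, which itself separated the genotypes, selects for both traits, so that these counts describe the selection. The likeness mostly followed genotype, because within genotype the same correlations were between 0.10 (Itga3) and 0.78 (Fgfr1). Robo2 had r = 0.886 and was the gene at rank 103, with 0.23 within genotype. Nus1 had r = -0.968 and was the gene at rank 2 from the lowest. These correlations are descriptions over 8 mice that share their libraries and the contrast that selected Robo1.

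Robo1 and Robo2 are neighbours on chromosome 16, 845.7 kb apart, with no other measured gene between them. Within 3 Mb on either side, a window chosen after the values were seen, 7 other genes were measured and 6 tested. None of the 6 was called by edgeR, DESeq2 or limma-voom, 1 had an unadjusted p under 0.05, and their log2 fold changes were between -0.37 (Mir99ahg) and 0.26 (Gbe1), with a median of 0.13. Over all genes tested, edgeR called 1.04%, and 12.8% had an unadjusted p under 0.05.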

How the data were processed

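RNA was sequenced from whole livers, 4 of each genotype. The values deposited by the authors are expected counts (estimated numbers of reads for each gene, with decimals possible), not scaled to depth (52.2% of genes had decimals, and no gene summed to under 10). The paper's methods name TopHat2 and cuffdiff, while the submitters' processing notes name STAR, Partek and mm9. The deposited gene starts are those of GRCm38. The library kit in the labels is one for small RNA, and the strand of counting is not given in the sources used here.

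Counts were rounded, filtered by filterByExpr (minimum count 10, minimum total 15), scaled by TMM, and then fitted in edgeR 4.0.16 (quasi-likelihood, genotype as the only term) in R 4.3.3, with Benjamini-Hochberg adjustment over 14214 genes and a threshold of 0.05. CPM are these counts scaled to a common TMM-adjusted depth, and log2 CPM used a prior count of 2. For 1 gene at a time, the mice were also compared by exact permutation, two-sided. Exon lengths came from GENCODE gene models of GRCm38. The test was checked on simulated data. Alternatives were RLE scaling, library totals, other filters, a replicate block, DESeq2 1.42.0, limma-voom (limma 3.58.1) and each mouse left out. No pair of libraries agreed within sampling noise (chi-square per degree of freedom 11.2 to 64.8).

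The members and lists were chosen with earlier results of these data known. Named were all members, Robo3, Nus1, at most 4 called genes per list (largest change first) and the 10 genes most like Robo1, and exceptions are stated in the text. A called marker that this rule names is not reported here.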

Additional observations from a re-analysis of the deposited data

Results flagged for a closer look

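In 5 groups of 4 mice, 1 mouse stood apart from the other 3 by Dixon's ratio, and over all groups looked at chance alone gives about 5.4. Nus1 was at 6.36 (log2 CPM) in WT replicate 1, below the other WT livers, all of them above every N-LKO liver. Colec10, a stellate cell marker, was at 4.60 in WT replicate 2. Gpx3, one of the genes most like Robo1, was at 1.93 in WT replicate 4. Plxna4 was at 2.84 in N-LKO replicate 1. The log2 summed CPM of proliferation markers was 2.85 in WT replicate 4. No member of the Slit-Robo family was among them on the log2 CPM scale.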

How the results depend on the processing

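Robo1 stayed between 1.59 and 1.62 on the log2 scale with all mice and any other scaling, filter, block or tool. Of the members other than Robo1, 0 were called, and 1 (Robo2) with no filter, with DESeq2 and with limma-voom. Leaving out each mouse gave 0 to 1, with Robo2 called without WT replicate 3 and Srgap3 without N-LKO replicate 2. The 148 genes called became 98 with at least 10 counts in every mouse and 371 with DESeq2. Leaving out each mouse gave 71 to 173, with 83 without WT replicate 2, 91 without WT replicate 3, 71 without WT replicate 4 and 76 without N-LKO replicate 3. DESeq2 called 4 pathway and guidance genes (Plxna4, Prrg4, Nrp2 and Epha2) in place of 1. The 11 called cell type markers became 6 to 11 when a mouse was left out, with 6 without WT replicate 4 and 7 without N-LKO replicate 3. The level of Robo1 in WT livers was 1.07 CPM per kilobase with the longest transcript in place of 0.489. The sign of Robo4 turned with library totals (-0.0055) and, when a mouse was left out (-0.033 to 0.11), without WT replicates 1 and 3 and N-LKO replicates 2 and 4. Srgap1 ranged from -0.14 to 0.30 and turned without WT replicate 2 and without N-LKO replicate 2. Apart from the changed filter and the fewer mice, the cause of these changes was not tested. Mice with the same number showed little shared deviation, with correlations of -0.085 to 0.062 by title number and -0.0092 to 0.17 by library number. Such values cannot exclude a pairing of mice, and the labels name none. The replicate block gave 131 called genes by title number and 113 by library number, with Robo2 at an adjusted p of 0.0636 and 0.105 (edgeR). Genes near 3 counts per library, such as Slit2, Robo3 and, in WT livers, Ncam1, are limited by depth.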
